A study of Mus musculus with 7 samples.

Results

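The genes described here are 7 interferon-inducible immunity-related GTPases of the mouse Irg family: the regulators Irgm1, Irgm2 and Igtp and the effectors Iigp1, Tgtp1, Tgtp2 and Ifi47. They were taken by gene symbol from a table of 24421 genes counted in 7 mouse tumours, and all 7 had a row and passed the filter on low counts. All 7 had higher mean levels in the 4 tumours treated with anti-Lair1 plus anti-PD-1 than in the 3 treated with anti-KLH plus anti-PD-1, by factors of 1.62 to 2.39. No member passed the test, which called 0% of all genes, and the groups overlapped for every member, where 3.06% of all genes were higher without overlap. The overlap came about because 1 of the 3 anti-KLH tumours had levels within the anti-Lair1 range.

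Polyadenylated RNA came from tumours whose titles give treatment at week 4, without naming the event from which weeks are counted. In the 4 tumours of the anti-Lair1 group the mice received an antibody against LAIR1, a collagen-binding inhibitory receptor of leukocytes, together with anti-PD-1, an antibody against the T cell checkpoint receptor PD-1. In the 3 tumours of the anti-KLH group the mice received a control antibody, named after keyhole limpet haemocyanin, together with the same anti-PD-1, so no tumour analysed here was free of PD-1 blockade. The contrast is therefore between LAIR1 blockade and its control on top of PD-1 blockade. The series text describes a pair of tumour models, and the labels do not say which of them these tumours were. In the subcutaneous model, cells of the 344SQ lung cancer line, from a mouse of genotype K-rasLA1/+p53R172H∆g/+, grew in the flank of male and female 129/Sv mice aged 6 to 8 weeks, the dose being 10 mg/kg for anti-LAIR and 8 mg/kg for anti-PD-1. In the other model, lung tumours arose in KrasLSL-G12D/p53fl/fl mice given adenovirus-cre into the trachea at 3 to 4 months of age and treated from 2 months later. Each library came from its own named mouse. The names of the anti-Lair1 mice share the prefix WTSV, those of anti-KLH replicates 1 and 3 the prefix LOHM and that of replicate 2 the prefix KWM, so any difference between these sets of mice cannot be told apart from the treatment.

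Irg proteins are GTPases that mouse cells make in response to interferons, above all interferon gamma. The effectors load onto the vacuoles of intracellular parasites such as Toxoplasma gondii and disrupt them, whereas the regulators sit on the cell's own membranes and keep the effectors inactive there. Interferon gamma acts on such genes through promoter motifs called GAS elements and through ISRE elements, which IRF factors bind. In a tumour these transcripts can come from the cancer cells as well as from immune and stromal cells, and in bulk RNA a change in the number of cells of a type cannot be told apart from a change in RNA per cell.

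Most members have the same interferon response motifs in their promoters. RefSeq promoter windows (GRCm38.p6), reaching from 250 bases before to 50 after a gene's annotated start, were held for 6 of the 7 members, Iigp1 being the other. They were searched on both strands, without mismatches, for the ISRE core, which is GAAA, any 2 bases and GAAA, and for the GAS element TTCNNNGAA. The stretches around the ISRE core are shown 5′ to 3′ on the gene's strand, with ISRE cores and GAS elements in capitals, since they are the letters that most of the members have in common.
Igtp, chr11:58199492-58199561, plus strand: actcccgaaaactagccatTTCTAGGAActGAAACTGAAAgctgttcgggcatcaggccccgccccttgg
Irgm2, chr11:58214883-58214952, plus strand: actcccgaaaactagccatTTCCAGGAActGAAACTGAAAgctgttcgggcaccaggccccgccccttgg
Tgtp1, chr11:48992284-48992353, minus strand: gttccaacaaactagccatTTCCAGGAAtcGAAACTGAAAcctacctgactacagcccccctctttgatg
Tgtp2, chr11:49064243-49064312, minus strand: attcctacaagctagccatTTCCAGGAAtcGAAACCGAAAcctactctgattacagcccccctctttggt
Irgm1, chr11:48871405-48871480, minus strand: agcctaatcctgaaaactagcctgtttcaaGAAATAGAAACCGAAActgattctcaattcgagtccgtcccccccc

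An ISRE core was found in 5 of the 6 member windows, against 1131 of all 32851 windows of this length (3.44%), and a GAS element in 4 of the 6, against 2726 (8.3%). In Igtp, Irgm2, Tgtp1 and Tgtp2 the GAS element lay directly upstream of the ISRE core with 2 bases between them. The ISRE core began 34 bases before the annotated start in Igtp, 64 in Irgm2, 77 in Tgtp1 and 70 in Tgtp2. Irgm1 had 2 overlapping ISRE cores, the first of which began 30 bases before the start, and no GAS element in its window. The window of Ifi47 held neither motif, which concerns only these letters in these bases. The joint pattern of a GAS element, any 2 bases and an ISRE core, written down after the member windows had been read, was found in 5 of the 32851 windows (0.0152%). These were the windows of Igtp, Irgm2, Tgtp1, Tgtp2 and Gm12185, a further Irg gene. No binding data were analysed here, so a match is a description of sequence only.

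Of the members, 6 lie in clusters on chromosome 11 (GRCm38), where Irgm1 spans 48865245 to 48871420, Tgtp1 48985329 to 48992246, Tgtp2 49057196 to 49064212 and Ifi47 49076587 to 49096987. Igtp spans 58199556 to 58207592 and its neighbour Irgm2 58214977 to 58222783. Iigp1 lies on chromosome 18, from 60373616 to 60392634. All are protein-coding genes. Tgtp1 and Tgtp2 are close copies: of the distinct 100-base stretches of the GENCODE transcripts of Tgtp1, a length equal to a read, 70.3% also occur in Tgtp2, and 76.8% of those of Tgtp2 occur in Tgtp1. The sources used here do not state how reads matching both were counted, so the split between these genes is uncertain. Igtp and Irgm2 share 109 such stretches, 5.16% of those of Igtp and 3.01% of those of Irgm2, and Irgm1 and Iigp1 share none with another gene.

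Total counts ran from 9879762 to 26255727 per library, with anti-KLH replicate 1 the deepest, and 3 counts in a library were worth from 0.119 to 0.305 CPM. Epithelial markers summed to between 4846 and 5849 CPM in the anti-Lair1 libraries and between 4743 and 5880 CPM in the anti-KLH libraries, so every library held epithelial transcripts. These markers do not tell cancer cells from normal epithelium. Striated muscle markers summed to between 15.88 and 127 CPM in the anti-Lair1 libraries, against 11.8 to 15.86 CPM in the anti-KLH libraries. With their level as a covariate the members' median log2 fold change was 0.77, with SEs from 0.53 (Ifi47) to 0.92 (Tgtp1). Since the muscle sum also separated the groups, though narrowly, its part and that of the treatment cannot be told apart. Levels below are CPM, read counts brought to a common library size with TMM factors, with SDs over libraries. Differences are log2 fold changes, anti-Lair1 minus anti-KLH, from edgeR's quasi-likelihood test with Benjamini-Hochberg adjustment over 13545 genes at a threshold of 0.05.

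**Figure D1:**
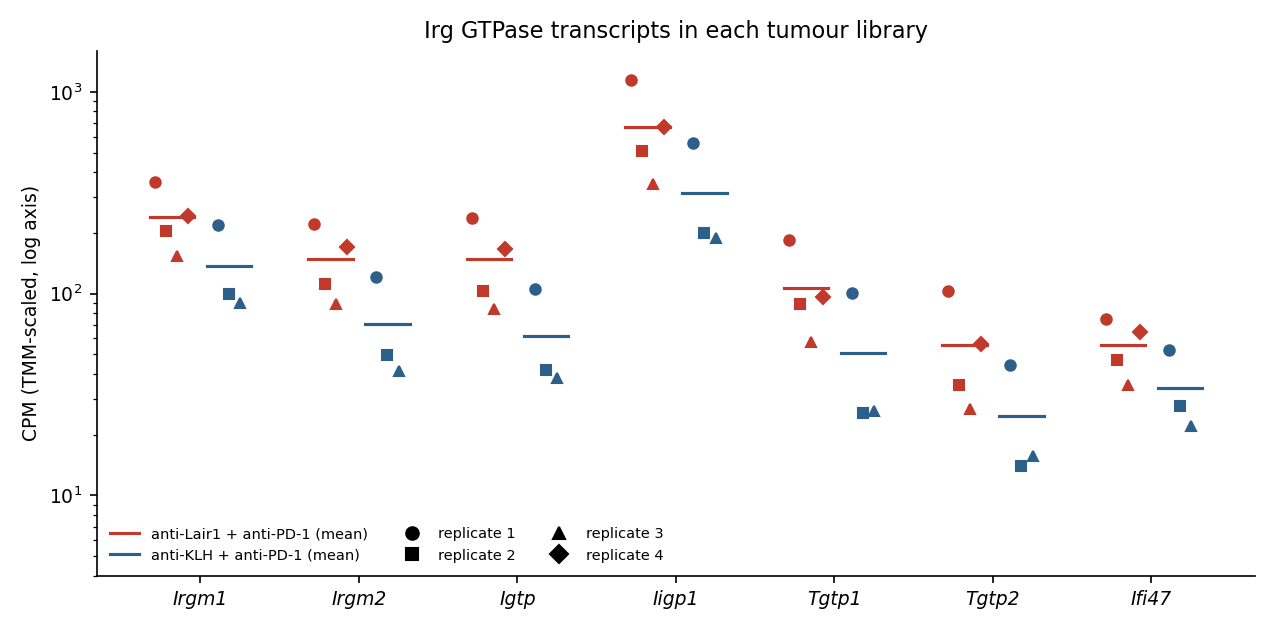
CPM of each Irg member (log axis) in the anti-Lair1 libraries (red, 4) and the anti-KLH libraries (blue, 3), with horizontal lines at group means and marker shapes for replicates. Anti-KLH replicate 1 (blue circles) lies within the range of the anti-Lair1 libraries for all 7 genes, and the other 2 anti-KLH libraries lie below every anti-Lair1 library.

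Among the regulators, Irgm1, which sits on lysosomes and other inner membranes and is needed for resistance to several intracellular pathogens in mice, had 359, 204, 154 and 244 CPM in anti-Lair1 replicates 1 to 4, against 220, 100.2 and 90.1 CPM in anti-KLH replicates 1 to 3. Anti-Lair1 replicates 1 and 4 were above every anti-KLH library, and anti-KLH replicate 1 was above anti-Lair1 replicates 2 and 3. Irgm1 averaged 240.2 ± 87.4 CPM with anti-Lair1 (SD, n = 4) and 137 ± 72.2 CPM with anti-KLH (SD, n = 3). Its log2 fold change of 0.81 (SE 0.40) had an edgeR adjusted p of 0.980.

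Irgm2, a regulator found on the Golgi, had 222, 112, 88.5 and 170 CPM in anti-Lair1 replicates 1 to 4, against 120.3, 49.6 and 41.4 CPM in anti-KLH replicates 1 to 3. The same anti-KLH replicate 1 lay between the anti-Lair1 libraries. The means were 148 ± 60.02 CPM with anti-Lair1 (SD, n = 4) and 70.4 ± 43.4 CPM with anti-KLH (SD, n = 3), and edgeR gave a log2 fold change of 1.06 (SE 0.47, adjusted p = 0.972).

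Igtp, also called Irgm3 and found on the endoplasmic reticulum and lipid droplets, had the largest fold change of the 7. It had 238, 103, 84.3 and 166 CPM in anti-Lair1 replicates 1 to 4, against 105, 41.9 and 38.1 CPM in anti-KLH replicates 1 to 3. Here anti-KLH replicate 1 exceeded anti-Lair1 replicate 2 only narrowly. The means were 148 ± 69.6 CPM with anti-Lair1 (SD, n = 4) and 61.8 ± 37.8 CPM with anti-KLH (SD, n = 3), and the log2 fold change was 1.25 (SE 0.50, edgeR adjusted p = 0.953). Igtp was the 1 member with an unadjusted edgeR p under 0.05, at 0.0405.

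Among the effectors, Iigp1, which codes for Irga6, a protein that coats parasite vacuoles, was the most abundant. It had 1144, 508, 350.3 and 670.3 CPM in anti-Lair1 replicates 1 to 4, against 557, 199 and 189.8 CPM in anti-KLH replicates 1 to 3. Anti-KLH replicate 1 again stood above anti-Lair1 replicates 2 and 3, while the other 2 anti-KLH libraries were below all 4 anti-Lair1 libraries. Iigp1 averaged 668 ± 343 CPM with anti-Lair1 (SD, n = 4) and 315 ± 209.6 CPM with anti-KLH (SD, n = 3). The log2 fold change was 1.08 (SE 0.53, edgeR adjusted p = 0.980).

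Tgtp1 and Tgtp2 code for the near-identical effectors known together as Irgb6. Tgtp1 had 184, 88.9, 57.5 and 96.2 CPM in anti-Lair1 replicates 1 to 4, against 101, 25.5 and 26.2 CPM in anti-KLH replicates 1 to 3, and was the 1 member for which anti-KLH replicate 1 was exceeded by a single anti-Lair1 library. Tgtp2 had 103, 35.4, 26.7 and 56.2 CPM in anti-Lair1 replicates 1 to 4, against 44.4, 13.98 and 15.7 CPM in anti-KLH replicates 1 to 3. Tgtp2 averaged 55.4 ± 34.3 CPM with anti-Lair1 (SD, n = 4) and 24.7 ± 17.1 CPM with anti-KLH (SD, n = 3), and Tgtp1 averaged 107 ± 54.04 CPM with anti-Lair1 and 50.99 ± 43.5 CPM with anti-KLH. The log2 fold changes were 1.04 (SE 0.61, edgeR adjusted p = 0.990) for Tgtp1 and 1.14 (SE 0.60, edgeR adjusted p = 0.980) for Tgtp2. With the counts of the pair summed, which removes the question of how shared reads were split between them, the log2 fold change was 1.08 (SE 0.60, edgeR adjusted p = 0.980). Tgtp2 took from 28.5% to 36.9% of the pair's counts in the anti-Lair1 libraries and from 30.5% to 37.4% in the anti-KLH libraries.

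Ifi47, the effector also called Irgd, had the smallest fold change. It had 75.1, 46.8, 35.1 and 64.9 CPM in anti-Lair1 replicates 1 to 4, against 52.5, 27.7 and 22.2 CPM in anti-KLH replicates 1 to 3. The order of the libraries was the same as for Irgm1. The means were 55.5 ± 17.9 CPM with anti-Lair1 (SD, n = 4) and 34.1 ± 16.1 CPM with anti-KLH (SD, n = 3), and edgeR gave a log2 fold change of 0.69 (SE 0.36, adjusted p = 0.980).

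As a set, the 7 members had a median log2 fold change of 1.06, against -0.0028 over all genes tested, and all 7 were above 0, as were 49.1% of all genes. A fold above 2 was fitted for 5 of the 7, and for 2.1% of all genes. At an adjusted p under 0.05 edgeR called 0 members and 0% of all genes, and at an unadjusted p under 0.05 it gave 1 member, higher with anti-Lair1, where 3.51% of all genes were. DESeq2 called 0 members and 0.388% of all genes at an adjusted p under 0.05, with 3 members at an unadjusted p under 0.05 and higher, where 3.86% of all genes were. With limma-voom and quality weights, 0 members and 0% of all genes had an adjusted p under 0.05, and 6 members had an unadjusted p under 0.05 and were higher, where 4.56% of all genes were. The groups overlapped for all 7 members, whereas 3.06% of all genes were higher in every anti-Lair1 library. Regulators and effectors did not stand apart in size, with median log2 fold changes of 1.06 each.

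**Figure D2:**
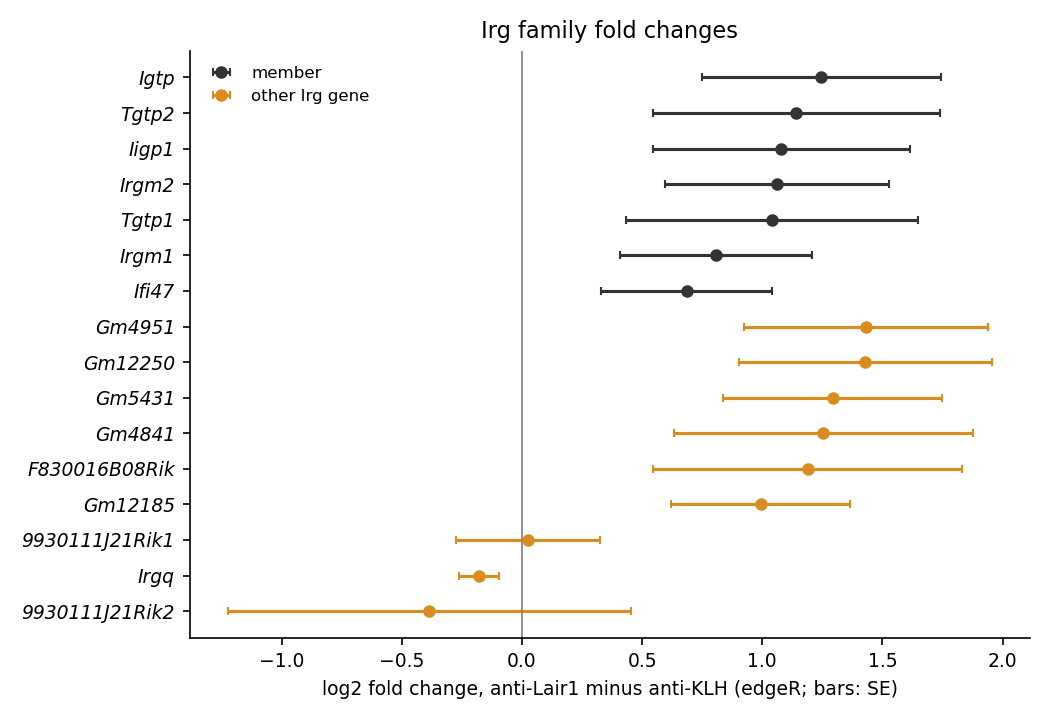
Log2 fold changes, anti-Lair1 minus anti-KLH, with their SEs (edgeR) for the 7 members (black) and the 9 other tested Irg genes (orange). The members lie between 0.69 and 1.25, 6 of the other genes lie between 0.99 and 1.43, and 9930111J21Rik1, Irgq and 9930111J21Rik2 lie near or below 0, the sign of 9930111J21Rik2 turning with limma-voom.

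The members kept nearly the same order of libraries. For Irgm1, Irgm2, Igtp, Iigp1 and Ifi47 the order from high to low was anti-Lair1 replicate 1, anti-Lair1 replicate 4, anti-KLH replicate 1, anti-Lair1 replicate 2, anti-Lair1 replicate 3, anti-KLH replicate 2 and anti-KLH replicate 3. Tgtp1 and Tgtp2 had the last 2 libraries exchanged, and Tgtp1 also had anti-KLH replicate 1 above anti-Lair1 replicate 4. Levels varied within each group: the highest anti-Lair1 library had 2.14 times (Ifi47) to 3.88 times (Tgtp2) the level of the lowest, and the highest anti-KLH library 2.37 times (Ifi47) to 3.97 times (Tgtp1) that of the lowest. Anti-KLH replicate 1 alone had from 2.10 times (Ifi47) to 3.91 times (Tgtp1) the mean of the other 2 anti-KLH libraries.

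**Figure D3:**
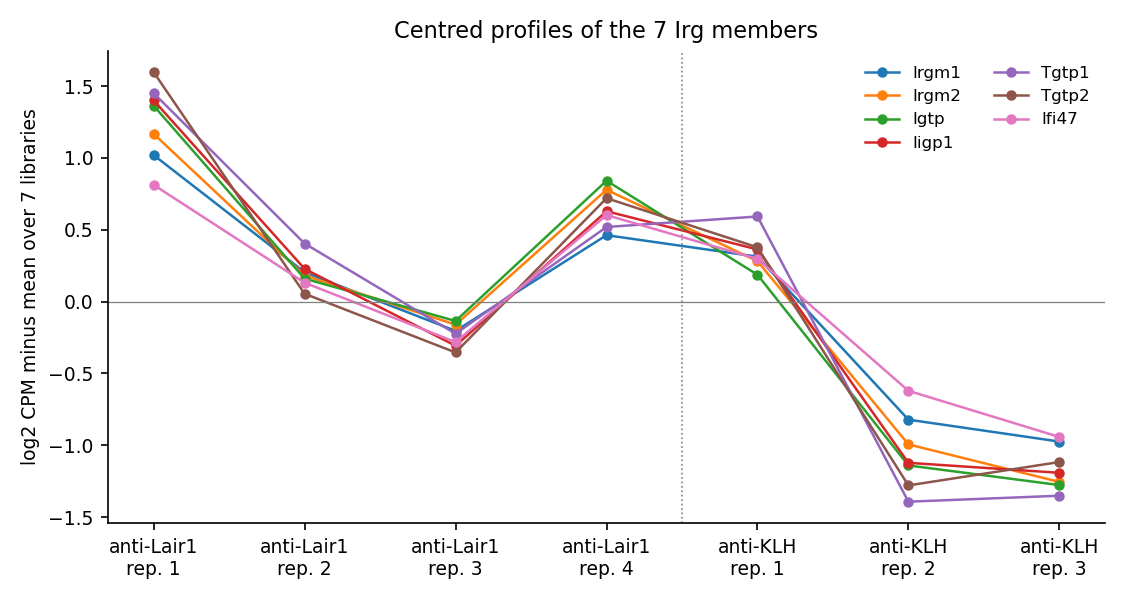
Log2 CPM of each member minus its mean over the 7 libraries, with anti-Lair1 libraries left of the dotted line and anti-KLH libraries right of it. Lines only join the points of a gene. All 7 genes peak in anti-Lair1 replicate 1 and are lowest in anti-KLH replicates 2 and 3, while anti-KLH replicate 1 lies above 0 for every gene.

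Each library was left out in turn. Without anti-KLH replicate 1 the groups overlapped for none of the 7 members, which follows from the levels above and is no separate evidence, and 7.72% of all genes were higher in every anti-Lair1 library. The median log2 fold change of the members was 1.78, with values from 1.15 for Ifi47 to 2.04 for Tgtp1. The adjusted edgeR p values of the members then lay between 0.815 and 0.820, and 0% of all genes were called. Without anti-Lair1 replicate 1, the library with the highest level of every member, the median was 0.66.

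**Figure D4:**
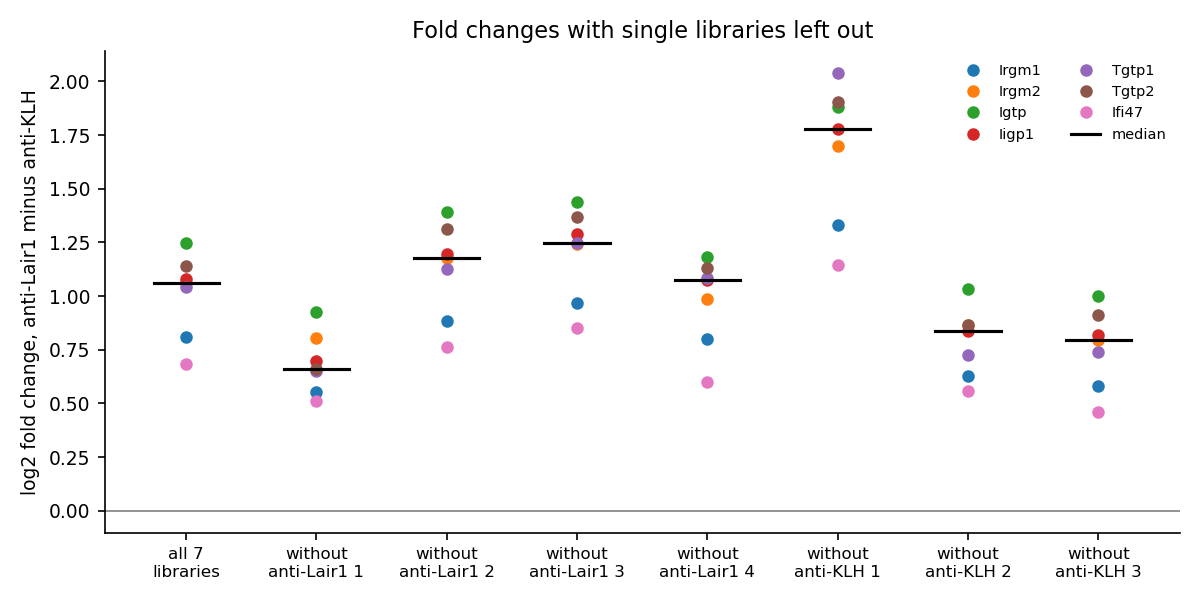
Log2 fold changes of the 7 members, anti-Lair1 minus anti-KLH, with all 7 libraries and with each library left out in turn (edgeR), with a black bar at the median of the members. The median is 1.06 with all libraries, lowest at 0.66 without anti-Lair1 replicate 1 and highest at 1.78 without anti-KLH replicate 1.

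Compared per length of coding sequence, the members differed widely in level. Iigp1 was highest in both groups, with 539 ± 277 CPM per coding kilobase in anti-Lair1 libraries (SD, n = 4) and 255 ± 169 in anti-KLH libraries (SD, n = 3). Irgm1 followed at 196 ± 71.2 CPM per coding kilobase with anti-Lair1 and 111 ± 58.9 with anti-KLH. Irgm2 and Igtp then had 121 ± 49.2 and 117 ± 54.8 CPM per coding kilobase with anti-Lair1. With anti-KLH they had 57.7 ± 35.5 and 48.7 ± 29.8. Tgtp1 came next at 85.6 ± 43.4 with anti-Lair1 and 40.96 ± 34.96 with anti-KLH. Tgtp2 and Ifi47 were lowest, at 44.5 ± 27.5 and 44.0 ± 14.2 with anti-Lair1 and 19.8 ± 13.7 and 27.1 ± 12.8 with anti-KLH. These SDs are over tumours, and differences between members within the same library were not tested. The levels of Tgtp1 and Tgtp2 depend on how reads matching both were counted, which is not known here. Their places in this order are therefore uncertain. Per length of all annotated exons, Iigp1 was still the highest, with 115 ± 58.9 CPM per kilobase with anti-Lair1 and 54.2 ± 36.0 with anti-KLH. On that scale Igtp, at 73.2 ± 34.4 with anti-Lair1 and 30.6 ± 18.7 with anti-KLH, came before Irgm1, at 41.3 ± 15.0 with anti-Lair1 and 23.5 ± 12.4 with anti-KLH, so the order below Iigp1 depends on the length used.

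The balance between effectors and regulators was alike in most libraries. The summed CPM of the 4 effectors was 1.84, 1.62, 1.44 and 1.53 times that of the 3 regulators in anti-Lair1 replicates 1 to 4, against 1.70, 1.39 and 1.496 times in anti-KLH replicates 1 to 3. The ratio was highest in anti-Lair1 replicate 1 and the groups overlapped. Iigp1 took 49.2% of the counts of the 7 members in anti-Lair1 replicate 1 and 43.5% in anti-KLH replicate 2, its highest and lowest shares, and Irgm1 took 15.4% and 21.9% in the same libraries.

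Most other Irg genes had fold changes in the range of the members or above it. Of 18 listed symbols, some of them alternative names, 10 had a row and 9 were tested, 7 of these being above 0 with a median log2 fold change of 1.19, where 49.1% of all genes were above 0. At an unadjusted edgeR p under 0.05, 4 were higher (3.51% of all genes), and 0 had an adjusted p under 0.05 (0% of all genes). Gm12250, which codes for Irgb10, a protein known to act on bacterial membranes in mouse cells, averaged 34.5 ± 20.6 CPM with anti-Lair1 (SD, n = 4) and 12.7 ± 4.69 CPM with anti-KLH (SD, n = 3), and edgeR gave a log2 fold change of 1.43 (SE 0.52, adjusted p = 0.938). Gm4841, Gm4951 and F830016B08Rik, the chromosome 18 neighbours of Iigp1, had log2 fold changes of 1.25, 1.43 and 1.19. Gm12185 and Gm5431 on chromosome 11 had 0.99 and 1.29, the counts of Gm5431 being low, at 3.41 ± 1.93 CPM with anti-Lair1 and 1.36 ± 0.406 CPM with anti-KLH.

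The remaining family genes had fold changes near or below 0, or were not tested. Irgq, a relative not known as interferon-inducible, had 68.5, 68.7, 65.05 and 70.7 CPM in anti-Lair1 replicates 1 to 4, against 83.1, 75.3 and 73.2 CPM in anti-KLH replicates 1 to 3. Every anti-Lair1 library was below every anti-KLH library, where 2.52% of all genes were lower in this way, and the log2 fold change was small, at -0.18 (SE 0.082, edgeR adjusted p = 0.969). 9930111J21Rik1 had a log2 fold change of 0.025 (SE 0.30), and 9930111J21Rik2, listed at 0 in 1 anti-KLH library and at most 1.11 CPM in any, one of -0.39 (SE 0.84) by edgeR and of 2.09 by limma-voom, so that its direction depended on the tool. Irgc1, known in mice for its expression in testis, was below the filter, at 0.319 ± 0.160 CPM with anti-Lair1 and 0.335 ± 0.128 CPM with anti-KLH. Whether these genes differed from the members in fold change was not tested.

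Genes that act upstream of the Irg family were unequal. Ifng, which codes for interferon gamma, had 0.395, 0.266, 0.518 and 0.726 CPM in anti-Lair1 replicates 1 to 4 and 0.435, 0.224 and 0 CPM in anti-KLH replicates 1 to 3, from 0 to 11 counts per library, and was not tested. Of the 8 tested genes of interferon gamma signalling 6 were above 0, with a median log2 fold change of 0.45, where 49.1% of all genes were above 0. At an unadjusted edgeR p under 0.05, 2 were higher (3.51% of all genes), and 0 had an adjusted p under 0.05. Irf1, a factor that binds ISRE elements, averaged 144 ± 45.3 CPM with anti-Lair1 (SD, n = 4) and 83.6 ± 31.2 CPM with anti-KLH (SD, n = 3). Irf8, an IRF factor of myeloid and lymphoid cells, averaged 34.4 ± 20.5 CPM with anti-Lair1 and 16.8 ± 7.43 CPM with anti-KLH. On the log2 scale the differences were 0.78 (SE 0.31) for Irf1 and 1.03 (SE 0.51) for Irf8. The receptor chains Ifngr1 and Ifngr2 and the kinases Jak1 and Jak2 had log2 fold changes of -0.11, 0.12, 0.083 and -0.0074. Socs1, an inhibitor of this pathway that interferon gamma induces, had a log2 fold change of 1.06 with groups that did not overlap.

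For type I interferon signalling, all 7 tested genes were above 0, with a median log2 fold change of 0.36, where 49.1% of all genes were above 0. At an unadjusted edgeR p under 0.05, 4 were higher (3.51% of all genes), and 0 had an adjusted p under 0.05. Usp18, an interferon-induced inhibitor of the type I receptor, averaged 8.40 ± 2.21 CPM with anti-Lair1 (SD, n = 4) and 3.30 ± 1.15 CPM with anti-KLH (SD, n = 3). Irf7, a factor that amplifies type I interferon production, averaged 38.1 ± 11.5 CPM with anti-Lair1 and 18.3 ± 8.10 CPM with anti-KLH. The log2 fold changes were 1.32 (SE 0.29, edgeR adjusted p = 0.624) for Usp18, which DESeq2 called at an adjusted p of 0.0164, and 1.03 (SE 0.32, edgeR adjusted p = 0.868) for Irf7. Stat2, a subunit of the ISGF3 factor, had a log2 fold change of 0.58 (SE 0.22). The receptor chains Ifnar1 and Ifnar2 and the kinase Tyk2 had log2 fold changes of 0.0023, 0.25 and 0.060. Ifnb1 was below the filter.

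Of the genes that act with Irg effectors at the vacuole, those of ATG8 conjugation and of ubiquitin had median log2 fold changes near 0. Of 11 genes for ATG8 proteins and their conjugation, which direct Irg effectors to vacuoles, 3 were above 0 and the median log2 fold change was -0.028, with 0 at an unadjusted p under 0.05. The lowest was Atg7, the activating enzyme of that conjugation, at -0.16 (SE 0.10). Of 6 genes for ubiquitin ligases and adaptors recruited to vacuoles, 3 were above 0 with a median of 0.015, and Trim21, a ubiquitin ligase, had the highest value at 0.45 (SE 0.28). The larger guanylate-binding proteins, GTPases that act on the same membranes, were all above 0, 11 of 11 with a median of 1.24, where 49.1% of all genes were above 0. Of the 11, 10 had an unadjusted edgeR p under 0.05 and were higher (3.51% of all genes), 5 were higher without overlap of the groups (3.06% of all genes), and 0 had an adjusted edgeR p under 0.05 (0% of all genes). Gbp10, Gbp11 and Gbp4 had the smallest p among them, with log2 fold changes of 2.39, 2.40 and 1.83 (edgeR adjusted p = 0.540, 0.598 and 0.729). DESeq2 called 4 of the 11, where it called 0.388% of all genes: Gbp3 and Gbp5 (adjusted p = 0.0496 each), Gbp10 (adjusted p = 0.0035) and Gbp11 (adjusted p = 0.0013). Gbp3 averaged 62.5 ± 27.4 CPM with anti-Lair1 (SD, n = 4) and 27.9 ± 11.1 CPM with anti-KLH (SD, n = 3), and Gbp5 32.3 ± 15.4 CPM with anti-Lair1 and 13.6 ± 3.52 CPM with anti-KLH. Gbp10 and Gbp11 had low counts, at 2.53 ± 0.685 and 4.57 ± 2.13 CPM with anti-Lair1 and 0.471 ± 0.186 and 0.845 ± 0.344 CPM with anti-KLH. Whether guanylate-binding proteins and Irg genes differed in fold change was not tested.

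The genes with profiles nearest to that of the members were found by the root mean square distance between a gene's centred log2 CPM and the mean of the 7 members over the 7 libraries. The members themselves lay from 0.0683 (Iigp1) to 0.251 (Ifi47) from their mean, and the median gene lay at 0.837. Among the nearest non-members were Oasl2, an oligoadenylate synthetase-like protein, at 0.105, Gbp2 at 0.1198, Prf1, which codes for perforin of cytotoxic lymphocytes, at 0.128, B2m, the light chain of MHC class I, at 0.131 and Gbp2b at 0.151. Among the 50 nearest were 6 of the 11 guanylate-binding proteins and 5 of the other Irg genes. No gene of the marker lists was among them, but immune cell genes outside those lists were, such as Cd72 of B cells at 0.231, Cd74, the MHC class II invariant chain, at 0.213 and H2-Aa, an MHC class II chain, at 0.170. The distance depends on the size of a gene's changes as well as on their order over libraries. Absence from the 50 nearest therefore does not show that a gene followed another order.

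Summed leukocyte markers had higher levels in every anti-Lair1 library, although no single marker passed the edgeR test. Among them DESeq2 called Lcp1 (adjusted p = 0.0253), where it called 0.388% of all genes. The 13 pan-leukocyte markers with a row summed to 522, 408, 398 and 493 CPM in anti-Lair1 replicates 1 to 4, against 372, 318 and 307 CPM in anti-KLH replicates 1 to 3, with no overlap of groups, and 13 of 13 had a log2 fold change above 0 with a median of 0.51, where 49.1% of all genes were above 0. Of these, 5 had an unadjusted edgeR p under 0.05 (3.51% of all genes) and 0 an adjusted p under 0.05. Singly, 4 of the 13 were higher without overlap (3.06% of all genes). T cell markers, 10 with a row, summed to 37.9, 16.8, 8.37 and 39.4 CPM in the anti-Lair1 libraries and to 15.7, 4.63 and 6.20 CPM in the anti-KLH libraries. All 7 tested T cell markers had a log2 fold change above 0 (49.1% of all genes), with a median of 1.40. Of the 7, 3 had an unadjusted edgeR p under 0.05 and were higher (3.51% of all genes), and 0 had an adjusted p under 0.05. Anti-KLH replicate 1 had the highest leukocyte and T cell sums of its group, as it had for the Irg members. The 12 macrophage markers summed to between 583 and 724 CPM with anti-Lair1 and between 466 and 621 CPM with anti-KLH, with overlap of groups. Of the 12, 11 had a log2 fold change above 0, with a median of 0.39, and Itgam had -0.21. Csf1r and Adgre1 were higher without overlap (3.06% of all genes), each with an unadjusted edgeR p under 0.05 (3.51% of all genes). No macrophage marker had an adjusted edgeR p under 0.05, and DESeq2 called Csf1r (adjusted p = 0.0095). NK cell markers, 6 with a row and 2 tested, summed to between 2.67 and 6.58 CPM with anti-Lair1 and between 1.63 and 2.24 CPM with anti-KLH. The 8 endothelial markers summed to between 116 and 137 CPM with anti-Lair1 and between 75.4 and 114 CPM with anti-KLH, and 8 of 8 had a log2 fold change above 0. Neither of these sums overlapped between the groups, the endothelial sums only narrowly, and their part in the levels of the Irg members was not tested. Of single markers, 1 of the 8 endothelial and 0 of the 2 tested NK cell markers were higher without overlap (3.06% of all genes). NK cell markers had low levels, with 3 of the 6 at 0 in at least 1 library. Over all 7 libraries the highest sum was 5.49 times the lowest for the Irg members, 1.70 times for the leukocyte markers, 1.55 times for the macrophage markers and 8.503 times for the T cell markers. No marker of these 3 lists was at 0 in all libraries, and 1 T cell marker was at 0 in at least 1 of them.

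**Figure D5:**
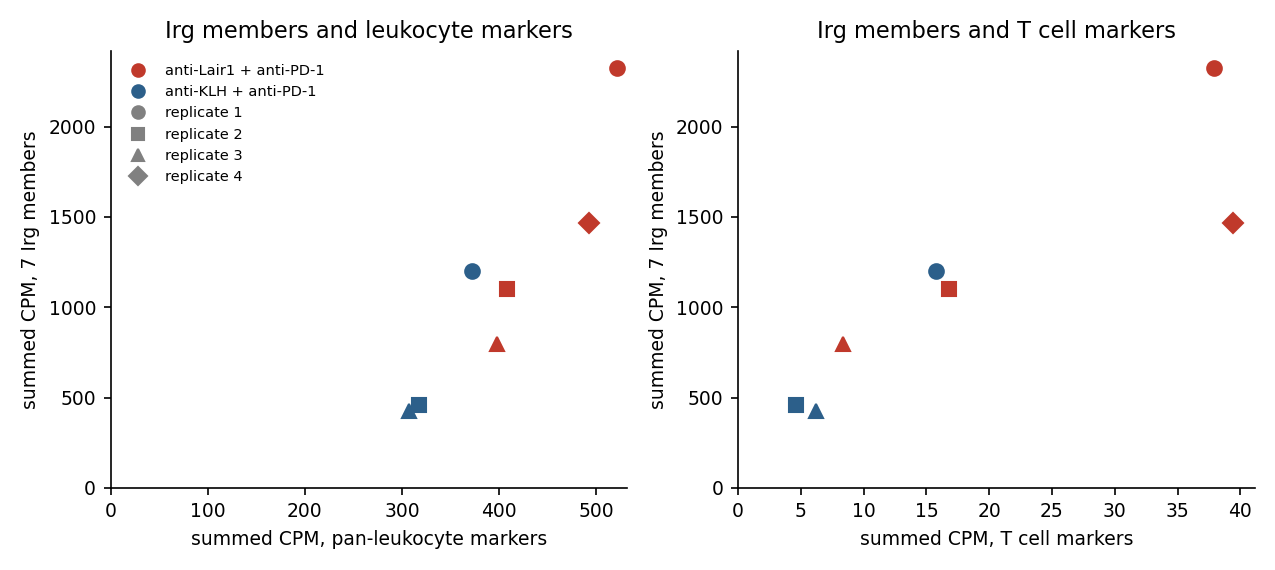
Summed CPM of the 7 Irg members (vertical axis) against the summed CPM of pan-leukocyte markers (left) and T cell markers (right), with 1 point per library, anti-Lair1 in red and anti-KLH in blue, and shapes for replicates. Anti-Lair1 replicate 1 has the highest Irg sum, 2325 CPM, and anti-KLH replicate 1, at 1201 CPM, lies among the anti-Lair1 libraries on the vertical axis.

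Set against the leukocyte sum of the same library, the summed Irg members were 4.46, 2.69, 2.00 and 2.98 times as high in anti-Lair1 replicates 1 to 4, against 3.23, 1.44 and 1.38 times in anti-KLH replicates 1 to 3, with overlapping groups. Set against the T cell sum, they were 61.4, 65.3, 95.1 and 37.2 times as high in anti-Lair1 replicates 1 to 4. In anti-KLH replicates 1 to 3 the Irg sum was 76.3, 98.8 and 68.3 times the T cell sum, again with overlapping groups. With the mean log2 CPM of the leukocyte markers as a covariate, the median log2 fold change of the members was -0.0992 and 2 of the 7 were above 0, where 49.3% of all genes were. In that fit Igtp had 0.0999 (SE 0.29) and Iigp1 -0.0996 (SE 0.37). Since the leukocyte sum itself separated the groups, its part and that of the treatment cannot be told apart in these 7 libraries. Lair1, the gene of the blocked receptor and itself expressed on leukocytes, averaged 8.34 ± 1.77 CPM with anti-Lair1 (SD, n = 4) and 5.46 ± 1.85 CPM with anti-KLH (SD, n = 3). Its groups overlapped, and the log2 fold change was 0.59 (SE 0.26, edgeR adjusted p = 0.967).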

How the data were processed

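Per the labels' protocols, polyadenylated RNA was made into directional libraries and sequenced as single reads. What the authors deposited is a table of unnormalized counts, with 24421 gene symbols as rows, 0 of them blank or summary rows, and 1 column per mouse. Replicates were numbered in accession order, which pairs no libraries. Trim Galore, STAR 2.7.6, featureCounts 2.0.1, edgeR 3.40.1 and mm10 are named in the submitters' processing notes. Strand setting, annotation and the treatment of multiply matching reads were not given in the sources used here.

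The analysis ran in R 4.3.3, with edgeR 4.0.16 for the fold changes and tests (filterByExpr at a minimum count of 10, TMM, robust quasi-likelihood fit of all 7 libraries without covariates). The filter left 13545 genes. SEs given with edgeR fold changes were worked back from its test, as the absolute log2 fold change divided by the square root of the F statistic. DESeq2 1.42.0, which gave an adjusted p for 13924 genes, and limma 3.58.1 were alternatives, besides other scaling, filters, thinning, summed Tgtp counts, tissue covariates and leaving out each library. The scripts were tested on simulated data. Log2 CPM used a prior count of 2. Floors of 3 counts cover counting error only. No pair of libraries was as alike as sampling noise would give: the smallest chi-square per degree of freedom was 6.74.

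The members and gene lists were chosen with earlier results of these data known, so members are described by counts and medians without a test over the list. Named genes were the members, every other Irg gene with a row, up to 3 genes with the smallest p of each pathway list, Ifng, Irf1, Irf8 and Lair1, and the 6 non-members with the nearest profiles, of which 1 is not reported here. Ifngr1, Ifngr2, Jak1, Jak2, Ifnb1, Ifnar1, Ifnar2, Tyk2, Gbp3, Gbp5, Lcp1, Csf1r, Adgre1, Itgam, Cd72, Cd74 and H2-Aa were named after their values were seen. Positions and promoters come from RefSeq (GRCm38.p6) and transcript lengths from GENCODE M21. Exact stretches of 100 bases were compared between transcripts. All 7 members matched by symbol. Figures were drawn with matplotlib 3.10.9.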

Additional observations from a re-analysis of the deposited data

Results flagged for a closer look

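Usp18, an interferon-induced inhibitor of type I interferon signalling, had 1 anti-Lair1 library far from the other 3: replicate 1 had 11.7 CPM, against 7.18, 7.25 and 7.48 CPM in replicates 2, 3 and 4. The gap to the nearest library was 0.934 of the group's range, above Dixon's 95% critical value for 4 samples. Of 55 values checked in this way it was the 1 above that limit, and chance alone passes it in about 5% of groups. None of the 7 Irg members did.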

How the results depend on the processing

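No Irg member passed an adjusted p of 0.05 under any alternative run, and the smallest adjusted p of a member was 0.632 (limma-voom). All members stayed above 0 under every alternative except the fit with the leukocyte level as a covariate, where 2 were above 0, the median was -0.0992 and the fold change was -0.056 for Irgm1, -0.0996 for Iigp1, -0.0992 for Tgtp1, -0.23 for Tgtp2 and -0.18 for Ifi47. With the muscle level as a covariate the median was 0.77. The leukocyte and muscle sums each separated the groups, so the part of neither can be told apart from that of the treatment. Over all genes, DESeq2 called 54 where edgeR called 0. Leaving out single libraries gave from 0 to 3 genes called, 3 of them without anti-Lair1 replicate 2, and 0 members. The members' median then lay between 0.66 and 1.78 and from 0 to 7 members had groups that did not overlap, all 7 without anti-KLH replicate 1 and 0 without any other library. No paired analysis was possible because the labels give no replicate numbers shared between the groups. With the counts of Tgtp1 and Tgtp2 summed, 6 of 6 were above 0 with a median of 1.07. The sets of mouse names and the treatment cannot be told apart.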
